A study of Mus musculus with 17 samples.

Results

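The miRs of the imprinted Dlk1-Dio3 domain were examined in mouse kidney after ischemia reperfusion injury (IRI). Its miRs were taken by name, as every row without a star whose number belongs to the cluster, whatever its letter or arm suffix. This gave 56 of the 569 mature miRs on the array. The kidneys came from C57/BL6 mice of 10 to 12 weeks. The labels describe the mice as female and the methods as male. IRI kidneys had undergone 30 minutes of warm ischemia on 1 side, sham controls had undergone surgery without ischemia, and naïve kidneys were untreated. Each arm was sampled on day 1, then on days 3, 5 and 7, and last on days 10 and 14 and 21 and 30, with RNA pooled from 3 mice per sample, so that no day had a replicate and the days served as the replicates of an arm. The IRI pool of a day carried the dye Cy3 and shared 1 array with the sham pool of that day, which carried Cy5. The dyes were never exchanged, so an arm effect that is equal on all days and an effect of the dye cannot be told apart. The single naïve pool was hybridised alone in Cy3. All 17 samples were used, and the number of arrays limits the precision.

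The Dlk1-Dio3 domain is imprinted, which means that its genes are expressed from only the maternal or only the paternal chromosome. The protein genes Dlk1, Rtl1 and Dio3 are expressed from the paternal copy, while the long non-coding RNAs Meg3, Rian and Mirg, an RNA antisense to Rtl1, and the miRs are transcribed from the maternal copy. The miRs are known for high levels in embryo, placenta and brain and for low levels in most adult organs.

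Mature sequences of 53 of the 56 members were identical to RefSeq sequences of build GRCm38.p6, all on the plus strand of chromosome 12 within chr12:109563710-109743784, a span of 180 kb. The genes Dlk1 (chr12:109452485-109463336) and Dio3 (chr12:110279230-110281097) lie on either side of it. The other 3 members, miR-376c, miR-485 and miR-487b, had no identical entry in the table used. Within the matched members, 2 lay inside the span of Meg3, 12 inside that of Rtl1, 2 inside that of Rian and 10 inside that of Mirg, and 27 lay inside none of these. The members miR-379, miR-377 and miR-329 carry the results below and are printed here with the seed, bases 2 to 8 and the main determinant of target choice, in capitals. The sequence of miR-411 is added because its bases 3 to 8 are those of miR-379, and that of miR-362-3p, a miR outside the domain, because its seed is that of miR-329.
miR-379: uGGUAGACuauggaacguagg
miR-411: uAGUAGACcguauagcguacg
miR-377: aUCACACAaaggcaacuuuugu
miR-329: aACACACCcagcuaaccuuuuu
miR-362-3p: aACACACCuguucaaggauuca
The mature miR-379 lies at chr12:109709065-109709085 and miR-329 at chr12:109713541-109713562, both between Rian and Mirg. The mature miR-377 lies at chr12:109740553-109740574, inside Mirg. All 56 members differed from each other in the seed, so that no pair of members could be joined by a shared seed.

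A miR was counted as above background in a sample when the mean of its 6 spots exceeded the median of the 250 empty spots of that channel by more than 3 median absolute deviations. No member was above background in all 17 samples, against 25.9% of the other 513 miRs. Above background in both channels on at least 4 of the 8 arrays was 1 member, miR-379 (1.79%), against 189 of the other miRs (36.8%). The number of members above background moved widely between samples, from 0 in IRI on days 14 and 30 to 50 in IRI on day 7. In the sham controls it moved from 1 on day 30 to 33 on day 10. The share of the other miRs above background moved with it, from 30.0% in IRI on day 14 to 95.5% in IRI on day 7. In naïve, 49 members were above background (87.5%), as were 91.4% of the other miRs.

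**Figure D1:**
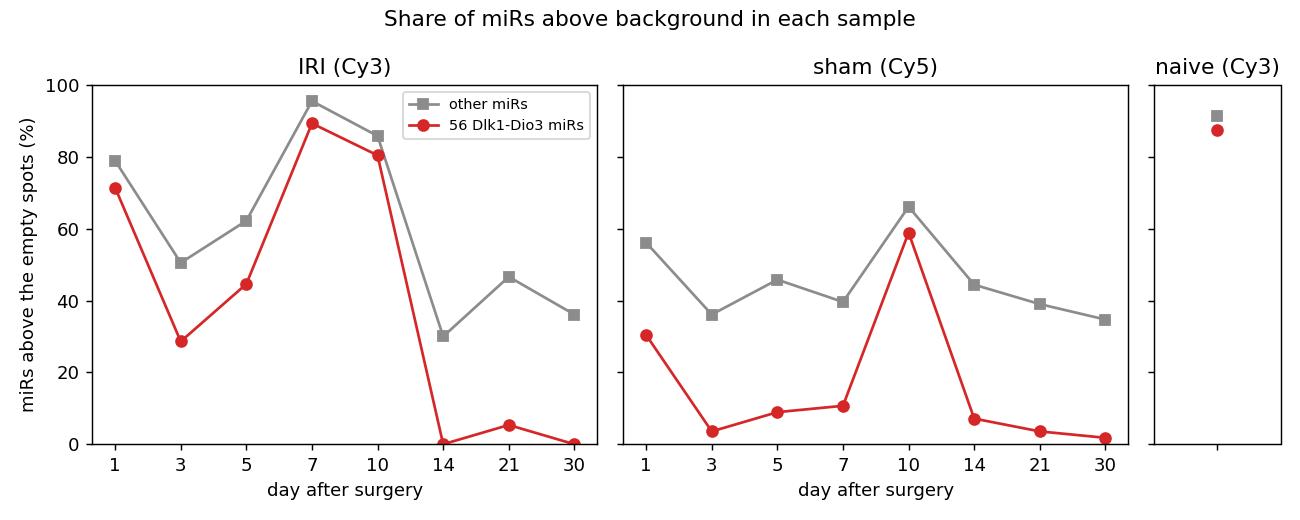
Percent of miRs above the empty spots (y axis) in each IRI, sham and naïve sample (x axis, day after surgery), for the 56 members (circles) and the other 513 miRs (squares). The members lie below the other miRs in every sample, and both rise on day 10 of the sham controls, where 33 members passed.

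Over all pairs of member and sample, 298 of 952 were above background (31.3%). They were 179 of 448 pairs in IRI and 70 of 448 in sham. Of the other miRs, 30.0% to 95.5% were above background in an IRI sample and 34.7% to 66.1% in a sham sample. The empty spots had medians of 185.5 to 515.9 in the IRI samples and of 33.0 to 43.9 in the sham samples, so the arms were read against different backgrounds. In all 17 samples the median signal of the members over the empty spots was below that of all miRs. On IRI day 1, for example, it was 27.4 against 33.1, and on sham day 1 it was 2.87 against 4.99. The typical probe of each sample thus lay above the empty spots, and the typical member lay below the typical probe. On the day 7 array, 1% of the empty spots lay above 565.8 in the IRI channel and above 143.8 in the sham channel, and no member exceeded these levels. Of the other miRs, 18.5% and 16.2% did, the lowest shares by this limit in any IRI and any sham sample. The kidney identity of the tissue was checked with 8 miRs known to be abundant in its epithelium, of which 7 were above background in all 17 samples, with a summed processed value between 27259 and 52578 per sample. Markers of other cells were above background in all samples in 4 of 4 for fibroblasts and smooth muscle, 2 of 4 for leukocytes, 1 of 1 for red cells, 0 of 3 for muscle, 0 of 2 for the nervous system and 0 of 1 for liver. The muscle miR-1 was nevertheless above background in 12 of 17 samples, and the liver miR-122 reached a processed value of 3571 in a sham sample.

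The authors' processed values placed the members low as well. Their median over all pairs was 15, against 19 for the other miRs and 463 for those miRs above background in all samples. A processed value of at least 50 was reached by 3 members in any sample, namely miR-134, miR-329 and miR-377. These are 5.36% of the members, against 38% of the other miRs, and miR-134 reached it only in naïve, at 53. A value of at least 200 was reached by miR-329 and miR-377 only, which is 3.57% of the members against 21.8% of the other miRs. With these 2 left out, the highest value of a member in any IRI or sham sample was 38.

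**Figure D2:**
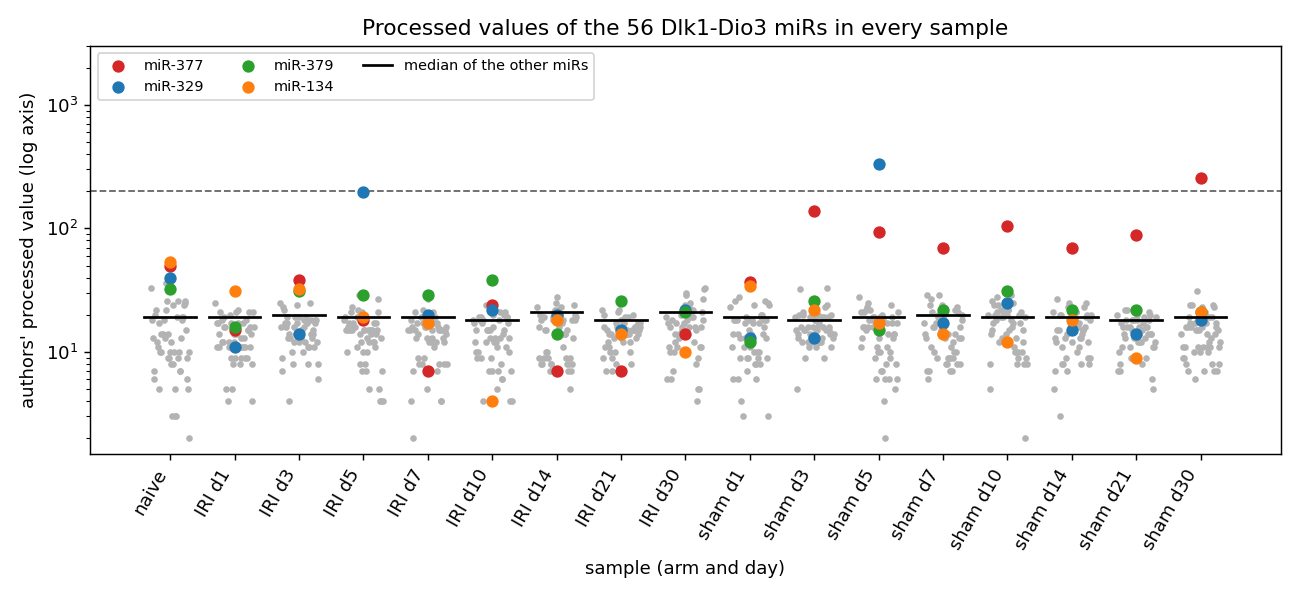
Processed value (y axis, log scale) of each of the 56 members in the 17 samples (x axis), with miR-377, miR-329, miR-379 and miR-134 in colour, the median of the other 513 miRs as a black bar and 200 as a dashed line. Only miR-329 in sham on day 5 and miR-377 in sham on day 30 pass the dashed line, at 330 and 258.

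The members were put into 3 groups by name, after their known order in the domain and not by coordinate. In the last group miR-493, miR-540-3p, miR-540-5p, miR-665, miR-673-3p and miR-673-5p also lie inside the span of Rtl1. The 40 members from miR-379 to miR-410, the large distal cluster, had a median processed value of 14.5, and 16 of them were above background in at least 4 IRI samples and 2 in at least 4 sham samples. Of all 56 members 37.5% and 5.36% were so, against 62.6% and 42.3% of the other 513 miRs, so that more miRs passed in the IRI channel whether or not they belonged to the domain. The 6 members listed as antisense to Rtl1, among them miR-127 and miR-136, had a median of 17. Of these, 2 were above background in at least 4 IRI samples and 0 in at least 4 sham samples. The remaining 10 members, from miR-770 in Meg3 to miR-341 and miR-370 in Rian, had a median of 16, with 3 and 1 above background in the same way. The medians of the groups differed little beside the range of the values, which ran from 2 to 33 in the last.

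Members above background in at least 4 samples of IRI but not of sham numbered 19, beside the higher share of the other miRs that passed in IRI (62.6% against 42.3% in sham). The share of the other miRs with this same pattern was not counted, so the 19 are a description of the members only. With the 99th percentile of the empty spots as the limit, 5 of the 19 kept this pattern (miR-127, miR-300, miR-329, miR-382 and miR-667), and with 5 median absolute deviations 0 did. The share of members in at least 4 IRI samples was then 10.7% by the 99th percentile, against 50.9% of the other miRs. In at least 4 sham samples it was 1.79%, against 37% of the other miRs. By the limit of 3 the 19 were miR-127 (6 IRI and 3 sham samples), miR-300 (5 and 3), miR-329 (5 and 2), miR-382 (5 and 1) and miR-540-5p (5 and 0), and with 4 IRI samples each miR-136, miR-369-3p, miR-376b, miR-381, miR-485, miR-487b, miR-494, miR-539, miR-540-3p, miR-654-3p, miR-654-5p, miR-667, miR-668 and miR-679, which were above background in 0 to 3 sham samples. The opposite pattern was shown by miR-377 alone, with 8 sham and 3 IRI samples. Both arms reached 4 samples in miR-379 (6 and 6) and in miR-665 (4 and 4), although miR-665 was above background in both channels on only 3 arrays. The other 34 members did so in neither arm.

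The order of the members by signal was not stable between samples. Spearman's rho between pairs of IRI samples over the 56 members ran from -0.423 to 0.819 with a median of 0.243, and between pairs of sham samples from 0.127 to 0.745 with a median of 0.414. Over the other 513 miRs the medians were 0.772 and 0.809. These are descriptions over probes that share arrays and backgrounds. The GC content of the members ran from 23.8% to 72.7% with a median of 50%, and its rho with the signal over the empty spots was between -0.247 and 0.578 in the IRI samples and between -0.181 and 0.614 in sham.

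By the limit of 3 median absolute deviations the member detected in most samples was miR-379, which gives the distal cluster its name. By 5 it was above background in 3 IRI and 2 sham samples, against 0 and 8 for miR-377. The spots of miR-379 exceeded the empty median in the IRI samples by 31.6 at the lowest, 53.5 at the median and 231 at the highest, on day 10. In the sham samples the signal was 3.19 at the lowest, 5.54 at the median and 9.54 at the highest, again on day 10. In naïve it was 68.4. Its processed values were 14 to 38 in IRI, 12 to 31 in sham and 32 in naïve, so that the arms overlapped. It was below background in IRI on days 14 and 30 and in sham on days 5 and 30.

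**Figure D3:**
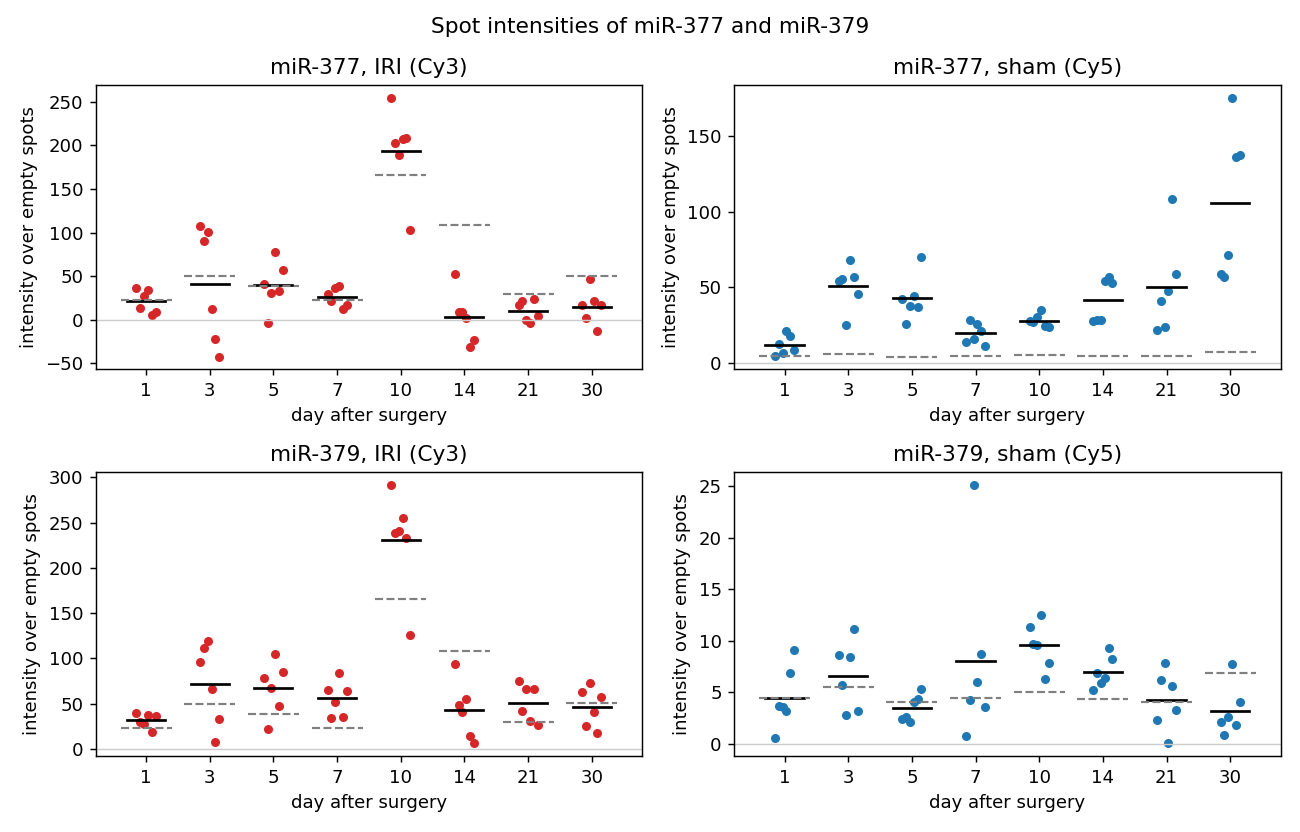
Intensity of each of the 6 spots over the median of the empty spots (y axis, scale differs between panels) by day (x axis), for miR-377 (top) and miR-379 (bottom) in IRI (left) and sham (right). Black bars are the means of the spots and dashed bars mark 3 median absolute deviations of the empty spots. The mean of miR-377 clears the dashed bar on all 8 days in sham and on 3 days in IRI.

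IRI and sham were compared by the per-array log2 ratio of IRI to sham after normexp background correction and loess, with limma over the 190 miRs above background in both channels on at least 4 arrays. Of these, 34.7% passed an adjusted p of 0.05 for the mean ratio, and miR-379, the only member tested, did not. Its normalized log2 level was 6.72 ± 0.12 in IRI and 6.71 ± 0.11 in sham (SD, n = 8 each), and 6.68 in naïve. The mean log2 ratio was 0.02 (SE 0.04, 95% interval -0.09 to 0.12, limma adjusted p = 0.781), and an exact two-sided sign-flip permutation over the 8 arrays gave p = 0.641. IRI was lower than sham on 4 of the 8 arrays. In the authors' processed values the mean log2 ratio was 0.23 (SE 0.16, limma adjusted p = 0.291), with an interval from -0.13 to 0.58. The median ratio of all 190 miRs tested was -0.05.

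A slope of the ratio over log2(day) asks whether the arms drift apart with time, and a dye bias equal on all arrays cancels in it. It passed in 2.63% of the 190 miRs and not in miR-379, with a slope of -0.0015 per doubling of the day (SE 0.03, limma adjusted p = 0.980). Within IRI alone, 6.84% of the miRs had a slope past the threshold, and that of miR-379 was 0.02 (SE 0.04, limma adjusted p = 0.796). Within sham alone, 1.05% did, and that of miR-379 was 0.02 (SE 0.03, limma adjusted p = 0.985). At an unadjusted p of 0.05 miR-379 passed none of the 4 tests either.

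Among the 189 other miRs tested, the log2 ratios most like those of miR-379 over the 8 arrays were those of miR-130a (Pearson's r 0.72), miR-615-3p (0.71) and miR-26b (0.69). These correlations rest on ratios of miR-379 that did not differ from 0.

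The largest difference between the arms was that of miR-377, whose mature strand lies inside Mirg. Its signal over the empty spots in sham, from the first to the last day, was 11.8, 50.7, 42.7, 19.3, 27.9, 41.3, 50.2 and 106. Of the 48 sham spots, 47 exceeded the limit of background on their own. In IRI the signal over the empty spots was 21.0, 41.1, 39.4, 25.9, 193.8, 2.82, 10.3 and 14.97 in the same order of days, and 17 of 48 spots exceeded the limit. The raw signals of the arms are not on a common scale, since the empty spots were brighter in Cy3 on every array.

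The processed values of miR-377 in sham were 37, 139, 94, 70, 104, 69, 89 and 258 on days 1 to 30, and those in IRI were 15, 38, 18, 7, 24, 7, 7 and 14. Sham was higher on all 8 days, and the arms overlapped only in sham day 1 against IRI day 3. The naïve value, 50, lay above all 8 IRI values, which were read with the same dye, and within the range of the sham values. In the normalized levels the IRI sample of day 10, at 7.01 on the log2 scale, lay above naïve, at 6.66. With a single naïve pool this was not tested. Above background in all 8 sham samples and in at most 3 IRI samples was no other of the 569 miRs. This description was chosen after the values were seen.

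Because miR-377 was above background in both channels on 3 arrays, it did not enter the comparison of the 190 miRs. Among the 162 miRs with a normalized level of at least 200 in at least 1 sample, where 4 members were tested, miR-377 passed, beside 36.4% of all. It met this filter only through sham on day 30, at 291, the arm in which it is higher. That pass is therefore no separate support for a difference. In the fit over all 569 miRs without a filter, its mean log2 IRI/sham ratio was -1.03 (SE 0.21, 95% interval -1.50 to -0.55, limma adjusted p = 0.0212). It was negative on all 8 arrays, from -0.33 on day 1 to -2.30 on day 30, and the exact sign-flip permutation gave p = 0.00781, the smallest that 8 arrays can give. Lower in IRI on all 8 arrays were 38 of the 569 miRs and 6 of the 56 members, miR-665 among them, so this p is not particular to miR-377. By its mean ratio miR-377 stood at rank 3 from the lowest of the 569 miRs, which is a description only. Without the day 14 or the day 21 array the limma adjusted p was 0.0516 or 0.0539, and the ratio was -0.997 or -0.979. In the authors' processed values the mean log2 ratio was -2.67 (SE 0.28, limma adjusted p = 5.00e-05), the lowest of the 569 miRs, and 4 members passed in that fit (miR-154, miR-370, miR-377 and miR-666-5p) beside 14.1% of all miRs. Over log2(day) the ratio had a slope of -0.29 (SE 0.10, limma adjusted p = 0.412), and that within sham was 0.20 (SE 0.07, limma adjusted p = 0.466), neither past the threshold. The part of the arm and that of the dye in this mean ratio cannot be told apart, and the naïve sample shares the dye of IRI alone. The normalized log2 level of miR-377 was 6.36 ± 0.34 in IRI and 7.39 ± 0.43 in sham (SD, n = 8 each), and 6.66 in naïve. In 5 of the 8 IRI samples the mean of its spots was not above background, so that the ratio there depends on how the background is treated, and the mean ratios given are no measured size of a difference in level. The summed processed value of the leukocyte markers was 1145 to 2549 in IRI, 424 to 851 in sham and 472 in naïve, and its part in the difference of miR-377 was not tested. Whether fewer cells with the miR or less of it per cell lay behind a lower level cannot be told apart in pooled tissue.

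**Figure D4:**
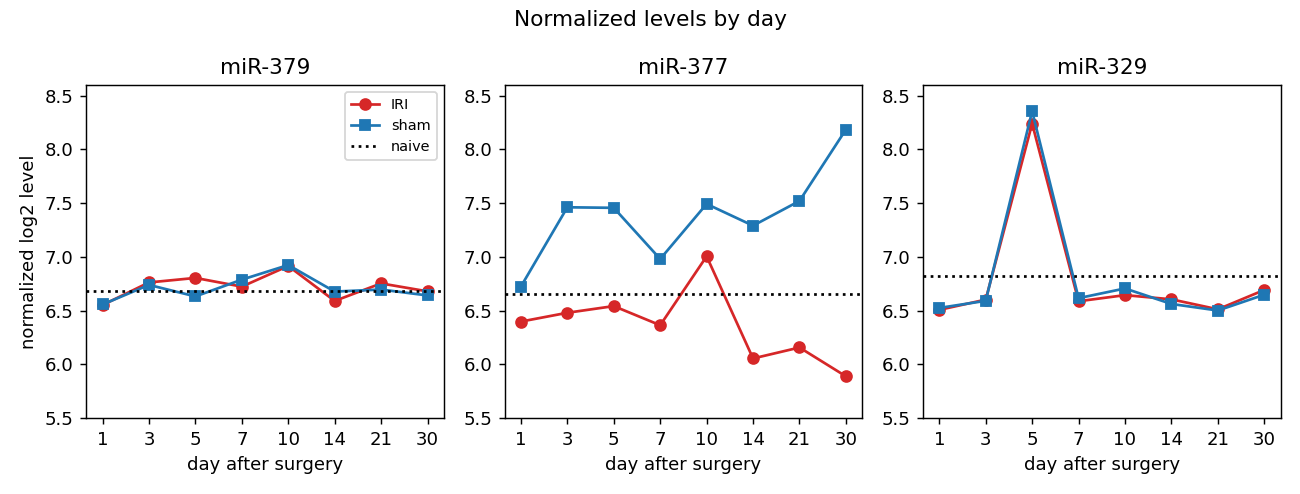
Normalized log2 level (y axis) of miR-379, miR-377 and miR-329 by day after surgery (x axis) in IRI (circles), sham (squares) and naïve (dotted line), 1 pool of 3 mice per point. The arms run together in miR-379 and in miR-329, which peaks on day 5 in both at 8.24 and 8.36, and are apart on all days in miR-377.

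With all 56 members in the fit over 569 miRs, 8 passed for the mean ratio, of which 5 were lower and 3 higher in IRI, beside 17.6% of all miRs that passed (8.96% higher and 8.61% lower). The lower members were miR-377, miR-665 (-0.10), miR-323-5p (-0.08), miR-412 (-0.07) and miR-666-3p (-0.06). The higher members were miR-679 (0.08), miR-539 (0.05) and miR-495 (0.04). None of the 8 was above background in both channels on at least 4 arrays. In sham, miR-679 and miR-539 were above background in 0 samples and miR-495 in 1. In IRI, miR-412 was above background in 0 samples. These ratios thus rest on signal near the empty spots in at least 1 arm. With the empty spots subtracted miR-377 alone passed, beside 11.8% of all miRs, as it did without the block of the array, beside 5.27%. Without the day 14 or the day 21 array only miR-539 and miR-679 passed, beside 5.45% and 5.98%. With local empty spots subtracted 5 members passed, with mean log2 ratios of -0.46 or lower, beside 14.1%, and with the median of the spots 4, beside 12%. The calls of all miRs fell in these fits too, but not in the same proportion. With the empty spots subtracted the members fell from 8 to 1 and all miRs from 100 to 67. With local empty spots miR-409-3p, miR-409-5p and miR-411 passed, which were not among the 8. Apart from miR-377 the mean log2 ratio of every member was between -0.10 and 0.08, and beyond 0.2 from 0 on the log2 scale only miR-377 passed, against 8.26% of all miRs. The offset of 50 added to each intensity compresses the ratios of dim probes, and these sizes hold for that scale only. In the processed values the other members that passed had mean log2 ratios of 0.72 (miR-154), -0.61 (miR-370) and -0.69 (miR-666-5p). The median over the 56 members was -0.0032 and that over all 569 miRs 0.00082. When the channels were scaled by their medians instead of by loess, 55 of the members passed as lower, beside 82.1% of all miRs that passed in either direction, and the median ratio of all miRs itself was -0.53, against -0.56 for the members. For the slopes 0 members passed by limma in the same fit, where the shares of all miRs were 0% for the ratio, 0.351% within IRI and 0.176% within sham, and 2, 1 and 4 members (3.57%, 1.79% and 7.14%) had an unadjusted p under 0.05 for the ratio, within IRI and within sham, beside 8.96%, 11.6% and 8.26% of all miRs.

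**Figure D5:**
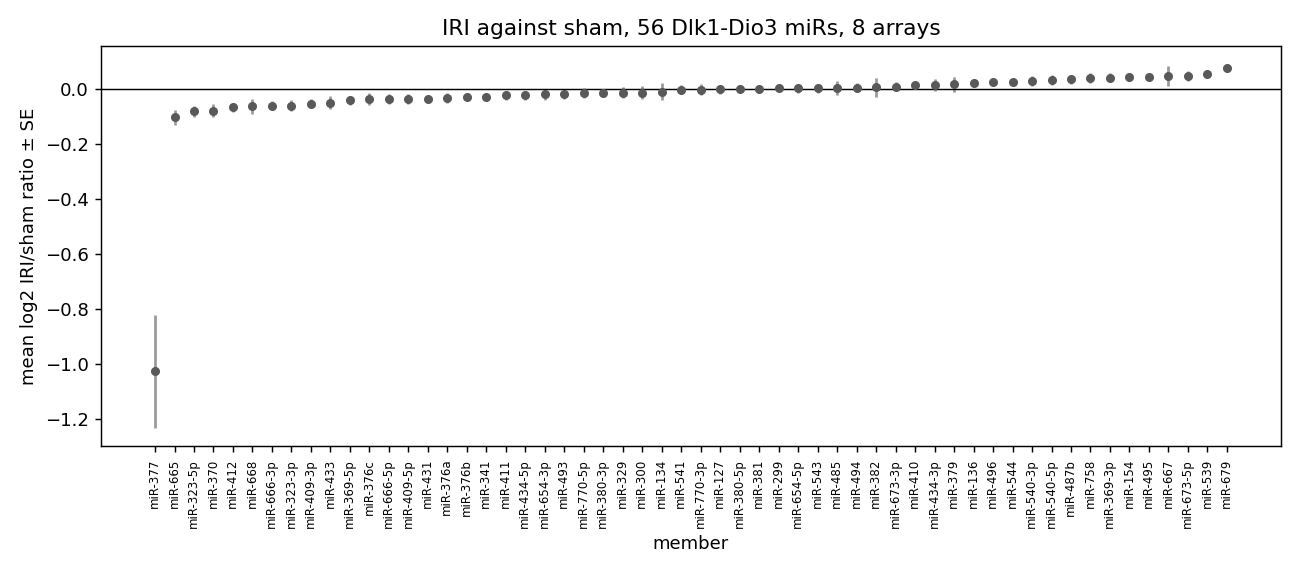
Mean log2 IRI/sham ratio (y axis) of each of the 56 members (x axis, sorted) over 8 arrays, with the standard error of the fit without a filter as bars. All members but miR-377, at -1.03, lie between -0.10 and 0.08.

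A single array set miR-329 apart. On day 5 its signal over the empty spots was 386 in IRI and 187 in sham, and all 12 spots exceeded the limit of background. On the other days it was 21.8 to 210 in IRI and 0.502 to 8.28 in sham. Its processed values were 197 in IRI and 330 in sham on day 5, at most 22 in IRI and 25 in sham on the other days, and 40 in naïve. Both arms were thus high on the same array, and the log2 IRI/sham ratio of that day was -0.12. Of the 569 miRs, miR-329 alone had its highest value on the same array in both arms, at least 100 in each and at least 5 times its next highest value. These limits were set after its values were seen. The miR with the same seed printed above, miR-362-3p, had processed values of 22 in IRI and 21 in sham on day 5. Its other IRI values were 8 to 13, below that of day 5, and its other sham values were 10 to 26, on either side of it. The methods give no second array of day 5, so the part of the mice and that of the array cannot be told apart.

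In naïve miR-134 had a processed value of 53. It had 4 to 32 in IRI and 9 to 34 in sham, and all IRI and sham values lay below the naïve value. The same held for miR-127, miR-382, miR-409-5p and miR-540-5p, so that 5 members (8.93%) did so, against 11.3% of the other miRs. In the normalized levels 14 members did (25%), miR-134, miR-667 and miR-668 among them, against 19.7% of the other miRs. The signal of miR-134 over the empty spots was 79.1 in naïve, and the same-dye IRI signals were 22.8 to 125, so that an IRI sample lay above naïve on this scale. This comparison has 1 naïve sample and was not tested.

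Other rows of the same domain, namely the star strands of the same miRs, miR-337 and miR-453, numbered 16. None was above background in both channels on at least 4 arrays. The highest processed value among them was 76, for miR-154*, and miR-485* was above background in 5 IRI and 5 sham samples.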

How the data were processed

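RNA of 17 pooled kidney samples was read on 9 arrays. The authors deposited the mean intensity of each spot without background correction, and a table with 1 processed intensity per miR and sample, with no account of its making in the labels or methods. Commas inside the scanner values were removed before they were read as intensity. The day 5 array names its channels only as A and B. Its processed columns correlated with their own channel at 0.998 and 0.999 and with the other at 0.953 and 0.941. Members and lists were chosen with earlier results of these data known.

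Spot intensities were corrected with normexp (limma 3.58.1 in R 4.3.3, offset 50, all spots of a channel), averaged over the 6 spots and put on the log2 scale. Channels were matched by loess (span 0.3, 4 iterations, control probes at weight 0), and array means were quantile-normalized with naïve. Ratios and slopes were fitted with lmFit and eBayes, with Benjamini-Hochberg adjustment over all miRs tested and a threshold of 0.05. The IRI and sham samples of a replicate number shared an array, so the ratio makes the array a block. Single members were tested by exact sign-flip permutation. Alternatives were the processed values as log2(value + 1), subtraction of the empty median, median scaling, the median of the spots, filters at 200, no filter, each array left out, an intensity trend with robust variance, day in place of log2(day), no block, and, added after the data were seen, local empty spots and combinations without a filter. All tested members were to be named, as was every member past a threshold or above background in 1 channel on at least 4 of 8 arrays. Sequences and coordinates are from RefSeq (GRCm38.p6). P-values measure the spread between days, each a pool of 3 mice.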

Additional observations from a re-analysis of the deposited data

Results flagged for a closer look

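In 5 members (miR-379, miR-377, miR-329, miR-134 and miR-665) the 8 log2 levels of IRI, those of sham and the 8 log2 ratios were searched for a single sample far from the others, which made 15 groups. By Dixon's test 2 groups had such a sample, both of miR-329. Chance marks about 1 group in 20, a rate that does not apply here, since these members were chosen with their values known, and the result only describes the day 5 values. The log2 level of miR-329 in IRI on day 5 was 8.24, against 6.69 for the next sample. The log2 level of miR-329 in sham on day 5 was 8.36, against 6.71 for the next sample. Both samples were read on the same array.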

How the results depend on the processing

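The number of members above background in both channels on at least 4 arrays was 1, and became 0 by the 99th percentile of the empty spots or by 5 median absolute deviations. With the empty spots within 16 printed rows, an alternative chosen after seeing the data, it was 4 (miR-377, miR-379, miR-665 and miR-668), against 41.7% of the other miRs. The 298 pairs of member and sample fell to 66 by 5 median absolute deviations. By that limit 0% to 41.1% of the members were above background in a sample, and 21.1% to 52.4% of the other miRs. Members called for the mean ratio were 0, but 1 (miR-377) with the filter of 200 in at least 1 sample, which it passed only through sham on day 30 (a normalized level of 291; 59 of all 162 miRs were called), and 8 without a filter. The 8 became 4 with the processed values, 1 with the empty spots subtracted, 5 with local empty spots, 55 with median scaling, 4 with the median of the spots, 1 without the replicate block, and 2 to 5 without 1 array, while all miRs called fell from 100 of 569 to 80, 67, 80, rose to 467, and fell to 68, to 30 and to 31 to 79. The 4 with the median of the spots were miR-370, miR-377, miR-665 and miR-673-5p, and miR-673-5p also passed without day 7. Under the filter of a mean of 200 no member was left to test. The median ratio of the tested members, 0.02, was 0.23 with the processed values, 0.16 with the empty spots subtracted and -0.38 with median scaling, and -0.0067 to 0.030 without 1 array. Ratio and slopes of miR-379 turned sign without passing the threshold. The ratio was -0.38 by median scaling and -0.0067 without day 5. The slope of the ratio was 0.052 with the empty spots subtracted, 0.0043 and 0.0048 without days 5 and 14, and 0.00014 per day. The slope within IRI was -0.096 by median scaling, -0.030 without day 1 and -0.00031 per day, and that within sham was -0.019 without day 1 and -0.00045 per day. Without 1 array these slopes ran from -0.012 to 0.0048, from -0.030 to 0.032 and from -0.019 to 0.038, and the ratio of miR-377 without a filter ran from -1.13 to -0.85. Without the replicate block (the array), the ratio of miR-379 was 0.02 (limma adjusted p = 0.857), no member was called, and that of miR-377 without a filter kept its call (adjusted p = 0.00416). The slope of the ratio of miR-377 passed by median scaling alone (-0.38, adjusted p = 0.0377). The cause of these changes was not tested. Dim signal limits most members, since a change in a miR at the level of the empty spots could not be measured.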

Other observations

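Without a filter and with local empty spots subtracted, an alternative added after the data were seen, the mean log2 IRI/sham ratio of miR-377 was -3.13 (SE 0.51, limma adjusted p = 0.00627), and miR-409-3p, miR-409-5p, miR-411 and miR-412 also passed as lower, beside 43 of all 569 miRs that did. By the same local rule miR-377 was above background in 5 IRI samples and 8 sham samples.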
